A study of Homo sapiens with 5 samples.

Results

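Among the sites that p53 occupied after DNA damage in HCT116 cells, a human colorectal cancer line, 392 of 3550 carried an ATF3 peak in wild-type cells that had not been damaged (11.0%, 95% Wilson interval 10.1 to 12.1), and these are called pre-bound sites here. A p53 site was a p53 peak on chromosomes 1 to 22, X or Y that had no base in common with a peak of the p53-KO library. It was counted as pre-bound when it had at least 1 bp in common with an ATF3-Ctrl peak. Of 9082 p53-CPT peaks, 5532 were shared with p53-KO and were set aside, and of those 205 (3.71%) held an ATF3-Ctrl peak. The pre-bound sites held 394 ATF3-Ctrl peaks, 1.17% of the 33681 peaks of that library. With an ATF3-Ctrl score of at least 20, 167 sites were left (4.70%), and with the p53-KO peaks not removed there were 597 (6.57%). Since each group was 1 library without replicates, no test between groups was possible. Shares are given with intervals that cover counting error only.

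For ATF3, the libraries came from wild-type cells with DMSO (ATF3-Ctrl), wild-type cells with camptothecin at 1.5 uM for 4 h (ATF3-CPT) and ATF3-KO cells with DMSO. Camptothecin (CPT) is an inhibitor of topoisomerase I that breaks DNA. For p53, 1 library was of p53 wild-type cells with the same CPT dose and time (p53-CPT) and 1 of p53-knockout cells with DMSO (p53-KO). p53-CPT and p53-KO differ in both genotype and treatment, and the parts of the 2 cannot be told apart. The ATF3-KO line was derived by homologous recombination from an AAV vector. It had received DMSO alone, and ATF3-KO cells after CPT and p53 in undamaged wild-type cells were not analysed here.

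p53 is a transcription factor that is stabilised after DNA damage and binds a response element made of a pair of similar decamers. Its target genes arrest the cell cycle, repair DNA, start apoptosis, and, through MDM2 and others, shut p53 off again. ATF3 is a stress-induced bZIP protein that binds as a dimer, with itself or with a partner such as JUN, to the ATF/CRE core TGACGTCA or the AP-1 core (TGACTCA or TGAGTCA). It also binds the p53 protein, and ATF3 itself is a p53 target gene.

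The sequences that follow show what the best-known pre-bound sites looked like on the plus strand of GRCh37, the build of hg19. Capitals mark the p53 element, defined here as the best match of at most 3 mismatches to its 20 bases within 200 bp around the p53 peak centre, and any ATF/CRE or AP-1 core nearest to it. Up to 10 bases are shown on either side. The first set lies at genes named for p53 and ATF3 together. The elements had 1 mismatch at GADD45A and CDKN1A, 2 at BBC3, IGFL3, GSN and the MDM2 promoter, and 3 at the upstream site of MDM2.
GADD45A (chr1:68152448-68152523): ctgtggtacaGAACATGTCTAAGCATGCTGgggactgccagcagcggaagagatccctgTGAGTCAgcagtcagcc
CDKN1A (chr6:36635025-36635064): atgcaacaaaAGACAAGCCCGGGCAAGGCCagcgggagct
BBC3 (chr19:47735815-47735854): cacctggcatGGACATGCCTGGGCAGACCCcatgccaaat
MDM2 (chr12:69202669-69202732): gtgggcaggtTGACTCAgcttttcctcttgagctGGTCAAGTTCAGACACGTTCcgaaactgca
MDM2 (chr12:69194022-69194061): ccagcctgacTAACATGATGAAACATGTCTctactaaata
IGFL3 (chr19:46636822-46636861): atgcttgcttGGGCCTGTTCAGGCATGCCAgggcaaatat
GSN (chr9:124084794-124084833): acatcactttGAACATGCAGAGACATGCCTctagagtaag
In this set GADD45A and the MDM2 promoter held an AP-1 core beside the p53 element, with 42.5 and 30.5 bp between the middles of the core and the element. The other 5 stretches held no such core within the 200 bp searched.

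The second set shows the pre-bound sites that, besides GADD45A, held both an AP-1 core and a p53 element of 0 or 1 mismatch. They are shown because both factors had a close match to their own sequence there.
SPTLC1 (chr9:94909704-94909757): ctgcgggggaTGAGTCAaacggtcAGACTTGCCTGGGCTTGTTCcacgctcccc
TCERG1L (chr10:132893065-132893118): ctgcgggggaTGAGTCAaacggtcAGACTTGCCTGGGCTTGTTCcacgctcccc
CCDC74A (chr2:132426594-132426701): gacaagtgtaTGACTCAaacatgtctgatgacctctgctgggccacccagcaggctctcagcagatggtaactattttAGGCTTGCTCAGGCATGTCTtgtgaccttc
NHS (chrX:17566040-17566165): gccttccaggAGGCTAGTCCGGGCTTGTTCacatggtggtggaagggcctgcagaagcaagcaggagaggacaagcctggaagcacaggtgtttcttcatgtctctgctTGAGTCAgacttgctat
ARL6IP6 (chr2:153916359-153916444): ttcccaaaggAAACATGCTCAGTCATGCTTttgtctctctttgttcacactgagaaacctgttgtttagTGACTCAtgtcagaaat
Of these, SPTLC1, TCERG1L, CCDC74A and NHS held an element without any mismatch, and ARL6IP6 had 1. The stretches at SPTLC1 on chromosome 9 and TCERG1L on chromosome 10 were identical over all 54 bases, and no other p53 site of the 3550 held them. Reads that lie wholly within such a stretch could be placed at either, so the 2 sites are not fully independent observations. The middles of core and element lay between 20.5 bp (SPTLC1 and TCERG1L) and 92.5 bp (NHS) apart.

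The third set shows the other kind of ATF3 sequence. Only 7 of the 392 pre-bound sites (1.79%) held the ATF/CRE core, and none of these had a p53 element. The 2 with the highest ATF3-Ctrl score that could be shown are given with 30 bases on either side of the core, in capitals.
PDE5A (chr4:120375805-120375872): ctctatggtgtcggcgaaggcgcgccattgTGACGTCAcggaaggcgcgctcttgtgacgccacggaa
RPL18 (chr19:49122455-49122522): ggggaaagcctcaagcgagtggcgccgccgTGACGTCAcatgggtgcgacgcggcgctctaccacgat
At PDE5A, ATF3-Ctrl had a score of 131 and p53 a score of 7, which was the lowest p53 score in the list. RPL18 encodes a ribosomal protein and was picked after its values were seen. It had an ATF3-Ctrl score of 66 and, again, a p53 score of 7. Both also had an ATF3-KO peak, as did 3 of these 7 sites.

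Strength was read from the findPeaks score, which is the number of tags in a peak with at most 1 tag per position, and compared only within a library. The p53 score of pre-bound sites had a median of 9 (quartiles 7 and 16, highest 169). At the 3158 other p53 sites the median was also 9 (quartiles 8 and 15, highest 176). By normalized tag count, in tags per 10000000, the medians were 28.4 and 31.5. Among sites with a p53 element the pre-bound ones scored higher, with a median of 17.5 and an upper quartile of 38.8, against 13 and 25 at other sites. Among all sites with a p53 score of at least 20, with or without an element, the medians were 39 at pre-bound and 32 at other sites. All p53 sites were also ranked by score and divided into 4 bins of equal size, with ties split by rank. Of the weakest bin 11.4% were pre-bound, of the middle bins 10.7% and 9.91%, and of the strongest bin 12.2%, and the 4 intervals overlapped.

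The ATF3-Ctrl peaks at p53 sites scored higher than the whole list, but more of them also had a peak in ATF3-KO cells (23.1% against 5.23%). Their median score was 17 (quartiles 12 and 28.8), against 13 for all ATF3-Ctrl peaks. At pre-bound sites with an ATF3-KO peak the median was 24, and at those without one 15. The bins that follow include peaks with ATF3-KO signal. From the weakest to the strongest of 4 equal bins of ATF3-Ctrl peaks, the share that lay on a p53 site was 0.653%, 0.891%, 1.25% and 1.89%. The interval of the strongest bin (1.62 to 2.20%) did not overlap that of any other bin. Across the 392 pre-bound sites the 2 scores had a Spearman rho of 0.04, a description over sites of the same 2 libraries.

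Many of these sites lay at the limit of detection. A p53 score of 7, the lowest in the list, was found at 101 pre-bound sites, and an ATF3-Ctrl score of 9, the lowest there, at 35. The p53-KO library was the shallowest, with 1984941 tags against 3169743 for p53-CPT and 12820520 to 15457013 for the ATF3 libraries. At 199 of the 392 pre-bound sites the p53 signal was under the threshold of that library (a normalized tag count, in tags per 10000000, of 30.2), so that a p53-KO peak of the same height would not have been listed. The same held for 1515 of the 3158 other sites. With a p53 score of at least 20, a cut set after the data were seen, 78 of 636 p53 sites were pre-bound (12.3%).

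**Figure D1:**
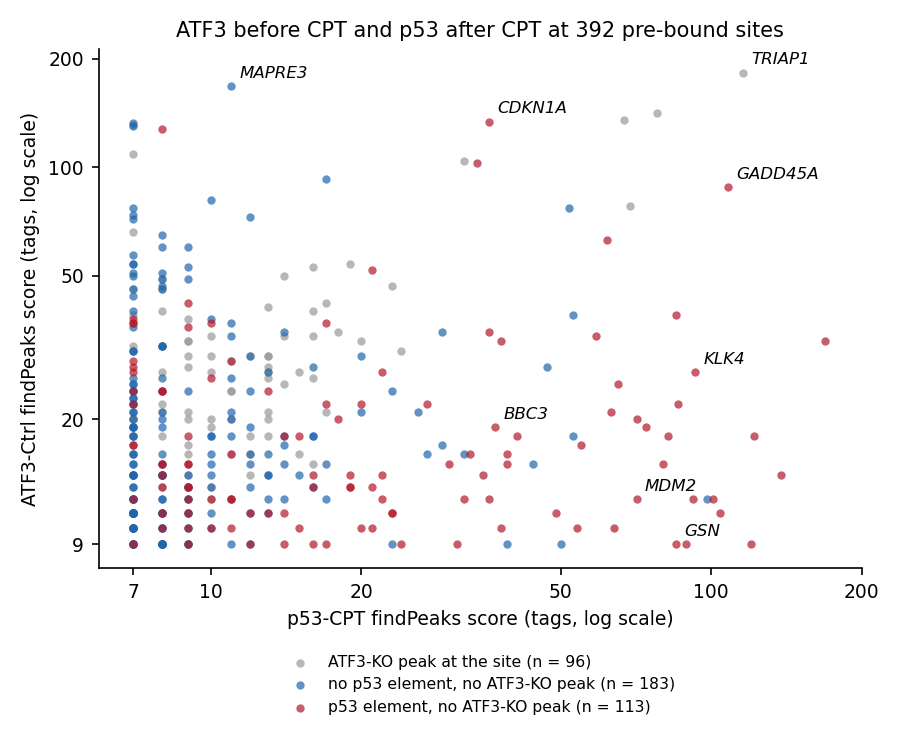
Each point is 1 of the 392 pre-bound sites, with its p53-CPT score on the x axis and its ATF3-Ctrl score on the y axis. Both are in tags on log scales. Grey marks sites with an ATF3-KO peak. Of the rest, red marks sites with a p53 element and blue sites without one. A column of blue points stands at the lowest p53 score of 7, and the red points reach the highest p53 score of 169.

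The p53 element divided the pre-bound sites. It was found in 114 of the 392 (29.1%, 24.8 to 33.8), against 1417 of the 3158 other p53 sites (44.9%, 43.1 to 46.6) and 4.46% of windows 1000 bp to the side of the pre-bound sites. Thus most pre-bound sites had no recognisable p53 element, and the element was less frequent there than at other p53 sites. When sites with an ATF3-KO peak were left out on both sides, the shares were 38.2% (32.8 to 43.8) and 45.1% (43.4 to 46.9), and the intervals overlapped. Among sites with a p53 score of at least 20, those with an ATF3-KO peak included, 67.9% held the element when pre-bound and 83.3% when not. An ATF3-KO peak was found at 8 of these 78 pre-bound sites and 0 of the 558 others, and the shares without them were not computed. Allowing 2 or 4 mismatches in place of 3 gave an element in 15.1% or 50% of the pre-bound sites.

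The 114 sites with an element were the stronger p53 sites. Their p53 score had a median of 17.5 (quartiles 9 and 38.8), whereas that of the 278 without one was 9 (7 and 12). Other p53 sites had the same order, with medians of 13 (9 and 25) and 8 (7 and 10). For ATF3-Ctrl at pre-bound sites the order was the opposite, with medians of 15 and 18. Without sites that had an ATF3-KO peak, the median of those lacking an element was 16. ATF3 before damage was present at 6.15%, 6.92%, 4.35% and 9.72% of the p53 sites with an element from the weakest to the strongest bin, and at 12.8%, 12.5%, 13.8% and 20.2% of those without one. In each bin the share was lower for sites with an element. Of the 278 pre-bound sites without an element, 95 had an ATF3-KO peak. When all p53 sites with an ATF3-KO peak were left out, the shares were 6.19%, 6.92%, 4.35% and 9.59% with an element and 10.8%, 8.50%, 7.92% and 13.1% without one, and in each bin the intervals overlapped. Over all bins these were 7.39% (6.18 to 8.81) and 9.61% (8.36 to 11.0).

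**Figure D2:**
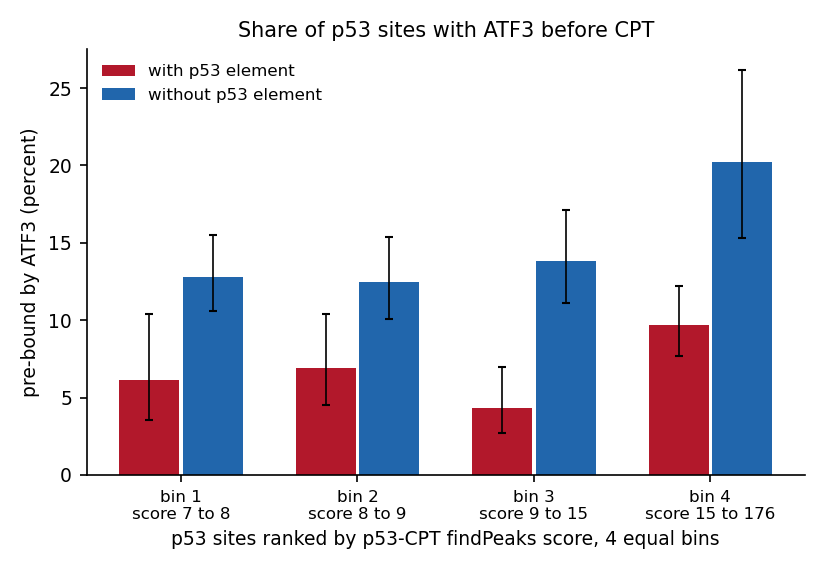
Bars give the percentage of p53 sites with an ATF3-Ctrl peak in each of 4 equal bins of the p53-CPT score, split by the p53 element, with 95% Wilson intervals. Among sites without an element the strongest bin reached 20.2%, and among sites with one 9.72%.

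ATF3 sequences were more frequent at pre-bound sites than at other p53 sites. An exact AP-1 core was found in 81 of 392 (20.7%, 16.9 to 24.9), in 131 of 3158 other p53 sites (4.15%, 3.51 to 4.90) and in 3.32% of the side windows. No other p53 site held an ATF/CRE core, and 3 counts of 3158 allow a share of up to 0.0950%. Among sites with a p53 element the difference was 32.5% for pre-bound against 5.93% for other sites. Neither a p53 element nor a core was found in 58.2% of pre-bound sites and 53.6% (51.9 to 55.4) of the others. This order turned round for the 296 pre-bound sites without an ATF3-KO peak, of which 45.9% (40.4 to 51.6) had neither. With an ATF3-KO peak it was 95.8%. When the 200 bp were centred on the ATF3-Ctrl peak instead, an AP-1 core was found at 49.1% of pre-bound sites with a p53 element and 22.3% of those without one, beside 33.5% of all ATF3-Ctrl peaks. A match says only that the letters are present, and which protein used them was not tested.

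Where element and core occurred together, at 37 sites (9.44%), their middles lay a median of 45.5 bp apart (quartiles 21.5 and 71.5). The p53 element lay close to the p53 peak centre, at a median of 11.0 bp, and further from the ATF3-Ctrl centre, at a median of 68.5 bp. Over all pre-bound sites the centres of the ATF3 and p53 peaks were a median of 55.5 bp apart (quartiles 17.8 and 114), and 46.7% were within 50 bp. Sites with an element had a median of 73.0 bp and those without one 46.5 bp. The ATF3-Ctrl peaks were 126 bp wide and the p53 peaks 318 bp, so the largest distance at which a pair shared a base was 221 bp. PCNA, whose product is the sliding clamp of DNA replication, was just outside, with an ATF3-Ctrl centre 229 bp from the centre of its p53 site.

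**Figure D3:**
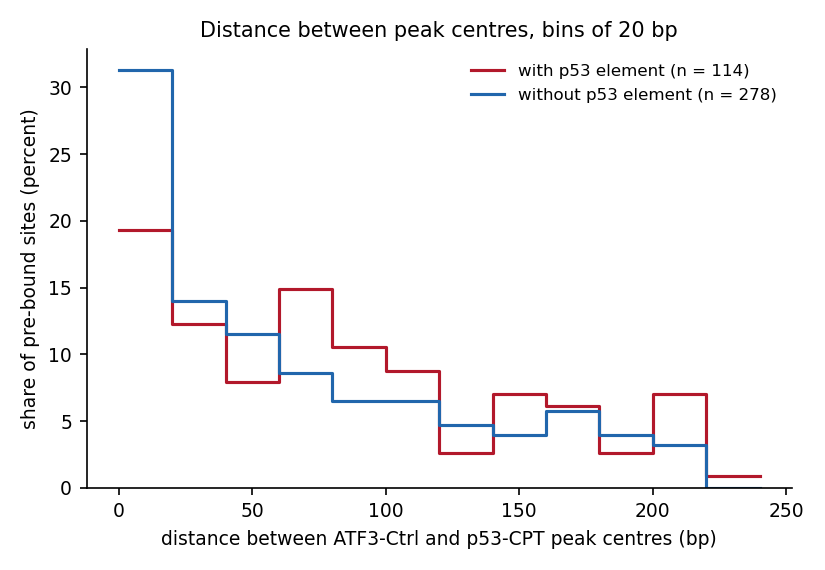
Lines give the percentage of pre-bound sites in each 20 bp bin of the distance between the ATF3-Ctrl and p53-CPT peak centres, for the 114 sites with a p53 element (red) and the 278 without one (blue). The blue line is highest in the first bin, and the red line is spread wider, with medians of 46.5 bp and 73.0 bp. The blue line includes 95 sites with an ATF3-KO peak, and without these its median was 62.0 bp.

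By position, pre-bound sites lay in promoters more often than other p53 sites. Of the 392, 115 lay in promoters, that is at most 2 kb from a protein-coding TSS (29.3%, 25 to 34), compared with 9.47% of other p53 sites and 27.4% of all ATF3-Ctrl peaks. Thus the share in promoters was near that of ATF3 in general, but it was 19.3% among pre-bound sites with a p53 score of at least 10. The median distance to a TSS was 17942 bp for pre-bound and 34844 bp for other sites. Pre-bound sites outside promoters had a median of 54098 bp. Over 100 kb from a TSS lay 26.0% of pre-bound and 28.0% (26.4 to 29.6) of other sites. The share was 17.2% (13.4 to 21.9) for the 296 pre-bound sites without an ATF3-KO peak, and so lower than at other sites. Introns held 24.0% of pre-bound and 38.1% of other sites, and 45.2% and 51.3% lay between genes.

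Pre-bound promoter sites had a median p53 score of 8, against 9 over all p53 sites, so both were near the lowest score. Only 21 of the 115 promoter sites (18.3%) had a p53 element. The 94 without one had a median p53 score of 7, the lowest possible, against 8 at other p53 sites without an element. Promoter sites that were not pre-bound were not compared in p53 score. The 21 with an element had a median p53 score of 18 and a median ATF3-Ctrl score of 13. Away from promoters, 93 of 277 sites (33.6%) had an element, with a median p53 score of 17.

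The antibody against ATF3 also gave peaks in ATF3-KO cells at some of these sites. An ATF3-KO peak was found at 96 of the 392 pre-bound sites (24.5%, 20.5 to 29.0), at 0.633% of other p53 sites and at 5.23% of all ATF3-Ctrl peaks. Of the 96 sites, 1 had a p53 element and 1 an AP-1 core. The normalized tag count at these sites had a median of 18.7 in ATF3-KO and 23.5 in ATF3-Ctrl, the ratio of the 2 had a median of 0.826, and at 36 sites ATF3-KO was at least as high. Thus ATF3-Ctrl peaks at these sites stood beside signal in cells without ATF3. Without these sites, 296 pre-bound sites were left, of which 38.2% had a p53 element, 27.0% an AP-1 core and 31.1% lay in promoters.

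Many sites with an ATF3-KO peak lay far from genes. Of the 96, 24.0% were in promoters, 61.5% were between genes and 53.1% were over 100 kb from any protein-coding TSS, compared with 17.2% of the 296 without an ATF3-KO peak. Several sat together. USP9Y on chromosome Y was the nearest gene, at 907319 bp or more, to 10 pre-bound sites, the most for any gene, and 9 of them had an ATF3-KO peak. LINC00999 on chromosome 10 was the nearest gene, at 155066 bp or more, to 6 pre-bound sites, of which 6 had an ATF3-KO peak. The intergenic ones with the highest ATF3-KO normalized tag count were the sites nearest OR4F16 and OR4C46, olfactory receptor genes at 54475 and 67614 bp. The normalized tag count near OR4F16 was 178.4 for ATF3-Ctrl but 440.7 for ATF3-KO, and near OR4C46 these were 202.4 and 230.1. Their p53 scores of 67 and 78 were among the higher ones, so high scores of both factors were also found where ATF3-KO cells gave signal.

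ATF3 peaks after damage were then set beside those before. A total of 344 pre-bound sites (87.8%) also had an ATF3-CPT peak, 48 had ATF3 before only, 322 p53 sites had ATF3 after only, and 2836 had neither. An ATF3-KO peak was found at 82 of the 344 and at 14 of the 48. The ATF3-CPT score had a median of 39.5 at the 344 sites and 15 at the 322 that had ATF3 after only, compared with 16 over all ATF3-CPT peaks. Over the whole list, ATF3-CPT peaks that overlapped an ATF3-Ctrl peak had a median score of 33 and those that did not 13, which is the same order. The after-only sites had a p53 element in 56.2% and an AP-1 core in 20.2%, against 31.1% and 23.3% of the 344 and 43.6% and 2.33% of sites with neither. The 31.1% includes sites with an ATF3-KO peak. When such sites were left out, the element was found in 38.2% (32.8 to 43.8) of all pre-bound sites, before-only ones included. At sites with neither it was then 43.8% (42.0 to 45.6), and these intervals overlapped.

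**Figure D4:**
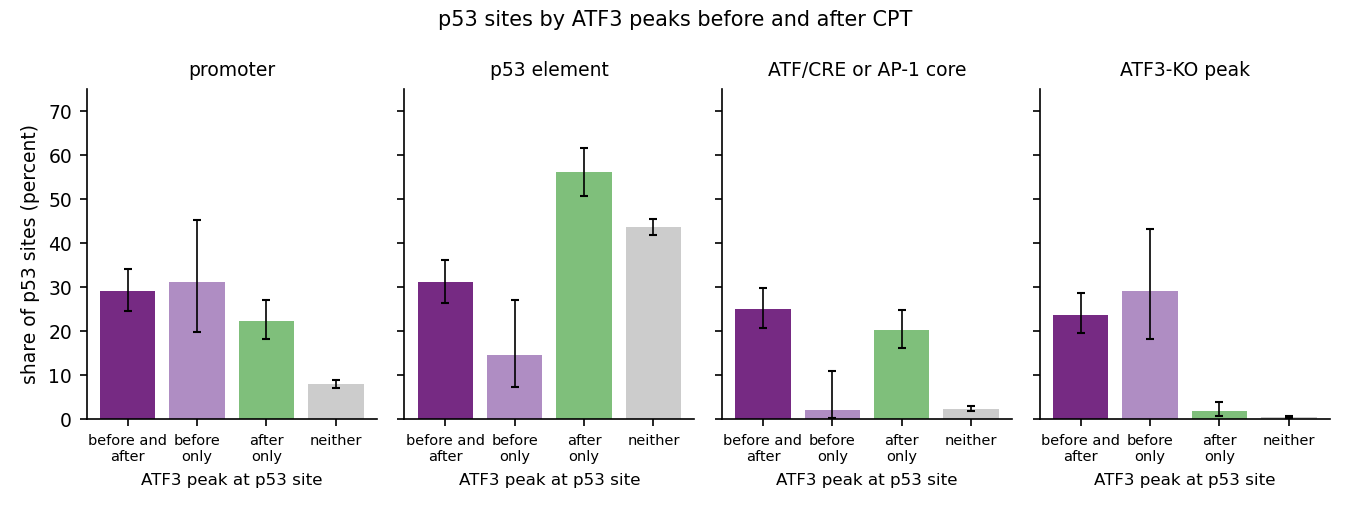
Bars give the percentage of p53 sites that lay in a promoter, held a p53 element, held an ATF/CRE or AP-1 core or had an ATF3-KO peak, for sites with ATF3 before and after CPT (n = 344), before only (n = 48), after only (n = 322) and neither (n = 2836), with 95% Wilson intervals. A p53 element was most frequent where ATF3 came after only (56.2%), and ATF3-KO peaks were found mainly where ATF3 was present before.

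The 48 sites with ATF3 before only were weak ATF3 sites. Their ATF3-Ctrl score had a median of 12, and 1 held an AP-1 core. Genes with such a site included AEN, an apoptosis-enhancing nuclease, PLK3, a polo-like kinase, and ATF3 itself. At the promoter of RPS19, a ribosomal protein gene with a p53 score of 101, an ATF3-CPT peak was listed at the same ATF3-Ctrl peak but no longer reached the p53 site.

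The height of ATF3 could be compared at 344 pre-bound sites whose ATF3-Ctrl peak overlapped an ATF3-CPT peak, of which 336 were among the sites with both above. It was at least 2-fold higher after CPT at 152 (44.2%, 39.0 to 49.5) and at least 2-fold lower at 20 (5.81%, 3.79 to 8.81). Over all ATF3-Ctrl peaks with an ATF3-CPT peak, 43.9% were at least 2-fold higher and 2.16% at least 2-fold lower. The median ratio was 1.82 at pre-bound sites and 1.81 over all. The median and the share that was higher were thus near those of all ATF3-Ctrl peaks, while the interval of the share that was lower did not include 2.16%. Without sites that had an ATF3-KO peak, 142 of 266 (53.4%, 47.4 to 59.3) were 2-fold higher and 2 were 2-fold lower.

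Sites with and without a p53 element were then set side by side. At sites with a p53 element, 68 of 110 (61.8%, 52.5 to 70.4) were at least 2-fold higher, with a median ratio of 2.48, and none was 2-fold lower, where 3 counts of 110 allow a share of up to 2.73%. Without an element, 35.9% (30 to 42.2) were 2-fold higher, with a median ratio of 1.49, and the intervals did not overlap. Sites with an ATF3-KO peak had a median ratio of 0.667, with 12.8% 2-fold higher and 23.1% 2-fold lower. When these were left out, 75 of 157 sites without an element (47.8%, 40.1 to 55.5) and 67 of 109 with one (61.5%, 52.1 to 70.1) were 2-fold higher, the intervals overlapped, and the median ratios were 1.94 and 2.47. Promoter sites were 2-fold higher in 42.2%, compared with 27.7% of all ATF3-Ctrl promoter peaks, and distal sites in 45.0%, compared with 50.1%.

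**Figure D5:**
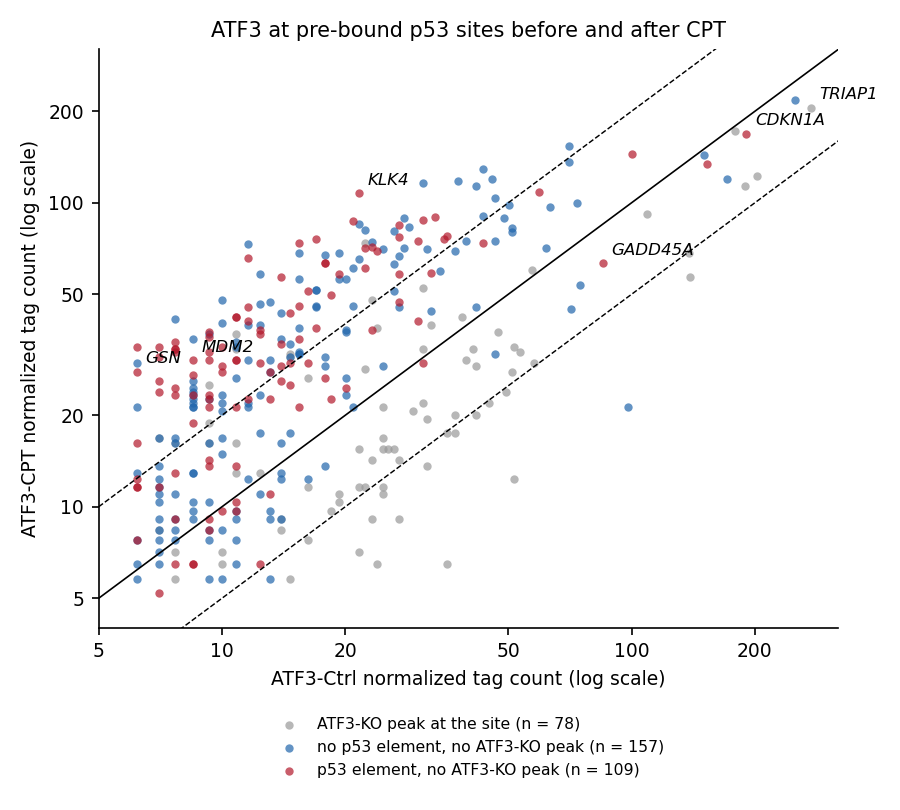
Each point is 1 of 344 pre-bound sites, with the normalized tag count of ATF3-Ctrl on the x axis and of ATF3-CPT on the y axis, both in tags per 10000000 on log scales; the solid line marks equal values and the dashed lines 2-fold differences. Red points (p53 element, no ATF3-KO peak) lie mostly above the solid line, with a median ratio of 2.47. Grey points (ATF3-KO peak) lie mostly below it, with a median ratio of 0.667.

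Among genes of cell cycle arrest, all 11 genes of the list had a p53 site and 4 had a pre-bound one. For comparison, 16.7% of all protein-coding genes had a p53 site under the same rule (up to 20 kb upstream or within the gene, or nearest TSS), 2.27% had a pre-bound one, and 13.6% of genes with a p53 site had a pre-bound one. GADD45A, which encodes a growth arrest and DNA damage protein, had the strongest pre-bound p53 site among them. It lay 1362 bp downstream of the TSS, with a p53 score of 108 and a p53 normalized tag count of 466.9 (395 to 548). ATF3-Ctrl was 85.0 (69.8 to 102) there and ATF3-CPT 63.4, a ratio of 0.746 (0.563 to 0.989), so ATF3 was already high and was not higher after CPT.

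CDKN1A encodes the cyclin-dependent kinase inhibitor p21. Of its 3 p53 sites, 1 was pre-bound, 9215 bp upstream of the TSS, where the p53 score was 36 and the normalized tag count 126.2 (90.2 to 172). ATF3-Ctrl was 190.8 (168 to 216) at this site, the highest among pre-bound sites with a p53 element, and ATF3-CPT was 168.9, a ratio of 0.885 (0.741 to 1.06). The centres of both peaks lay 4 bp apart, and no AP-1 or ATF/CRE core was found. The strongest p53 peak of all 3550 by score, 176, lay 5 bp from the CDKN1A TSS, with a p53 normalized tag count of 905.4, and had no ATF3 peak before or after CPT. The nearest ATF3-Ctrl centre was 2118 bp away.

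GDF15, a secreted stress cytokine, had a pre-bound site upstream in an exon of its neighbour PGPEP1. Here the p53 score was 62, ATF3-Ctrl was 59.5 (46.9 to 74.3), and ATF3-CPT was 108.7, a ratio of 1.83 (1.39 to 2.43). Its promoter site at 768 bp upstream, with a p53 score of 68, had ATF3 after CPT only. PLK3 had a pre-bound promoter site with a p53 score of 44 and an ATF3-Ctrl score of 15. The other 7 genes of the list, SFN, BTG2, PLK2, CCNG1, ZMAT3, RPRM and PTP4A1, had p53 sites without ATF3 before damage.

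Of 17 apoptosis genes, 12 had a p53 site and 3 a pre-bound one. BBC3, which encodes the BH3-only protein PUMA, had a pre-bound site 191 bp downstream of a TSS, with a p53 score of 37. ATF3-Ctrl was 15.4 (9.44 to 23.9) there and ATF3-CPT 35.6, a ratio of 2.31 (1.36 to 4.06). The peak centres were 206 bp apart, so the peaks met at their edges only. A second BBC3 site with a higher p53 score of 59 had no ATF3 peak. AEN had a p53 score of 54 and an ATF3-Ctrl score of 10, and TP53INP1 had 17 and 12. BAX, PMAIP1, FAS, APAF1, PIDD1 and 4 TRAIL receptor genes had p53 sites but none that was pre-bound.

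Genes of the p53 feedback loop had 4 of 6 with a p53 site pre-bound. MDM2, the ubiquitin ligase that degrades p53, had 2 pre-bound sites. At the promoter site, 30 bp upstream of a TSS, the p53 score was 71, ATF3-Ctrl was 8.5 (4.24 to 15.2) and ATF3-CPT was 30.4, a ratio of 3.58 (1.83 to 7.65). The site 7940 bp upstream was weak in both libraries, with a score of 10 in each. Thus at MDM2 the ATF3 peak was barely over its threshold before damage and higher after it, unlike at GADD45A and CDKN1A.

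TRIAP1, which encodes an inhibitor of apoptosis, had the highest ATF3-Ctrl score of all pre-bound sites, 183, and a p53 score of 116. Its best match to the p53 element had 4 mismatches, 1 more than allowed. ATF3-Ctrl was 274.2 (246 to 304), ATF3-CPT 205.7 and ATF3-KO 86.6, so signal was also present in cells without ATF3. PPM1D, the phosphatase WIP1, had a p53 score of 16, an ATF3-Ctrl value of 10.8 and an ATF3-KO value of 8.6. PHLDA3, an inhibitor of AKT, had scores of 50 for p53 and 9 for ATF3-Ctrl. RPS27L, with a p53 score of 110, and MDM4 had no pre-bound site.

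POLH, a translesion DNA polymerase, was the only gene of 7 for DNA repair with a pre-bound site. The p53 score was 10 and the ATF3-Ctrl value 9.3, with an ATF3-KO value of 7. XPC, DDB2, RRM2B, FANCC and PCNA had p53 sites only, and that of RRM2B had a p53 score of 78 and an AP-1 core within 34.5 bp of a p53 element. Of 14 genes of metabolism and antioxidant defence, 6 had a p53 site and none was pre-bound. Over all 5 lists of p53 targets, 42 of 60 genes had a p53 site and 12 a pre-bound one, 13 of 54 sites. An ATF3-Ctrl peak somewhere in the same reach was found at 54 of the 60 genes and at 38 of the 42 with a p53 site. Of all protein-coding genes 72.6% had such a peak, and of those with a p53 site 84.9%. These lists were chosen with results of these data known, so their counts are descriptions. The 12 genes became 9 without sites that had an ATF3-KO peak, 4 with an ATF3-Ctrl score of at least 20 and 19 when centres up to 500 bp apart were counted.

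Outside these lists, 1 of 14 AP-1 family genes had a pre-bound site, which was ATF3 itself. That site lay 4314 bp downstream of a TSS, with a p53 score of 14 and an ATF3-Ctrl value of 9.3 (4.79 to 16.2), and had no ATF3-CPT peak. A stronger p53 site of ATF3, with a score of 89, had ATF3 after CPT only. Of 16 genes of EGFR ligands and MAPK feedback, 6 had a p53 site and none was pre-bound. Among genes of epithelial adhesion and matrix, ITGA6, an integrin, and GSN, the actin-severing gelsolin, had a pre-bound site.

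GSN was unlike ITGA6 in p53 strength, with a score of 85 against 7. Its intronic site had an ATF3-Ctrl value of 6.2 (2.67 to 12.2) and an ATF3-CPT value of 27.8, a ratio of 4.48 (2.09 to 11.1). IGFL3, an IGF-like gene, had a site 8903 bp upstream with a p53 score of 82, where ATF3 went from 13.9 (8.24 to 22) to 29.1, a ratio of 2.09 (1.19 to 3.84).

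The pre-bound sites of highest p53 score had ATF3-Ctrl scores of 9 to 183, on both sides of the median of 17.5 over all pre-bound sites. After SARAF, with a p53 score of 169 and an ATF3-Ctrl score of 33, came GML with 138 and 14, SMYD2 with 122 and 18, H6PD with 120 and 9, TRIAP1 with 116 and 183, and GADD45A with 108 and 88. FAM72D, RPS19, SHROOM3 and KLK4 followed with p53 scores of 104, 101, 98 and 93 and ATF3-Ctrl scores of 11, 12, 12 and 27. The SARAF site, 299316 bp from the TSS, had the same p53 normalized tag count as the CDKN1A promoter, 905.4. Of these sites, KLK4, a kallikrein protease gene, had the highest ratio after CPT, 4.97 (3.31 to 7.70), with ATF3 at 21.6 before and 107.4 after.

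The pre-bound sites of highest ATF3-Ctrl score fell into 2 kinds. TRIAP1, CDKN1A, OR4C46 and OR4F16 had p53 scores of 36 to 116. At the other 6, MAPRE3, EIF1, PDE5A, ABCB9, EZR and POP4, the p53 score was 7 to 11 and the ATF3-Ctrl score 109 to 168. MAPRE3, a microtubule end-binding protein gene, held an AP-1 core, with ATF3-Ctrl at 251.0 (224 to 280) and p53 at 37.9 (19.6 to 66.1). EZR, the membrane linker ezrin, held an AP-1 core whose middle lay 1.50 bp from that of a p53 element of 3 mismatches, so core and element overlapped. PDE5A and POP4 had ATF3-KO values of 46.8 and 35.9. TRIAP1, OR4C46 and OR4F16 also had an ATF3-KO peak. At none of the 10 sites was ATF3 higher after CPT, and the ratios lay between 0.602 at PDE5A and 0.965 at OR4F16. These sites were chosen for high ATF3-Ctrl, which is also the denominator of the ratio, so the choice itself favours low ratios. Equally strong ATF3-Ctrl peaks away from p53 sites were not compared.

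Last, the distance to ATF3 was taken at p53 sites that were not pre-bound, which by definition shared no base with an ATF3-Ctrl peak. Their nearest ATF3-Ctrl centre was a median of 27708 bp away. Of these sites 7.63% had one within 1 kb and 28.5% within 10 kb. No such rate was computed for other positions, so whether ATF3 was rare near them was not tested. With a p53 element the median was 24195 bp and without one 31207 bp.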

How the data were processed

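ChIP-seq of ATF3 and p53 in HCT116 cells gave 5 libraries, 1 per group, without replicates. Cells were crosslinked in 2 steps, by DSG (1 mM, 45 min) and then formaldehyde (1%, 10 min), and chromatin was sheared to about 500 bp and precipitated with 2 ug of antibody. The submitters' processing notes name BWA 0.6.1 and HOMER 4.1, and the file headers give findPeaks thresholds of a false discovery rate of 0.001, a 4.00-fold excess over the local region and a local p of 0.0001. The normalized tag counts that the authors deposited are signal values, scaled in each library to 10000000 tags. The deposited findPeaks score is a number of tags with at most 1 per position, and the authors did not scale it for depth. A fold over the local region and its p-value, also made by the authors, were not used.

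Peaks on chromosomes 1 to 22, X and Y were matched where they shared 1 bp or more. At each site the highest-scoring overlapping peak was taken. TSSs came from protein-coding genes of GENCODE release 44 mapped to GRCh37, promoters were within 2 kb, and a gene of a list also took p53 sites up to 20 kb upstream of its TSS or within it. A 20-base p53 element of at most 3 mismatches and exact cores were searched in 200 bp, on both strands. The ATF/CRE and AP-1 cores do not contain each other. Shares have 95% Wilson intervals, the limit for a count of 0 is 3 counts over the total, tag counts exact Poisson intervals and ratios exact conditional (Clopper-Pearson) intervals. Signal under the tag thresholds of 9 (ATF3-Ctrl and ATF3-CPT), 11 (ATF3-KO), 7 (p53-CPT) and 6 (p53-KO) was not listed and so not detectable. The libraries held 12947516 (ATF3-Ctrl), 15457013 (ATF3-CPT), 12820520 (ATF3-KO), 3169743 (p53-CPT) and 1984941 (p53-KO) tags.

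Sites were named if they were among the 10 of highest p53 or the 10 of highest ATF3-Ctrl score, lay at a gene of the p53 lists, held a p53 element of 0 or 1 mismatch with a core, lay at a gene that the study names for both factors, or were among 5 strong p53 sites of listed genes without ATF3. The members and lists were chosen with earlier results of these data known. Some genes of the lists are not reported here. Overlap, motif and interval functions were tested on simulated data, and 7 of 7 checks passed. Alternatives changed the overlap, the p53-KO and ATF3-KO filters, the score minimum, the scale, the promoter width, the genes, the motif limit, the window and the fold. Python 3.11.15, pandas 2.3.3, scipy 1.17.1, pysam 0.24.0 and samtools 1.23.1 were used.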

Additional observations from a re-analysis of the deposited data

How the results depend on the processing

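No paired analysis was possible because each group was 1 library. Each of 9 values was recomputed under 21 other settings, of which 3 were chosen after seeing the data. Of 189 values, 136 stayed within the interval of the value reported (counts within 1.5 times) and 53 moved. The values reported were 392 sites, 11.0% of p53 sites, 49.0% over the median p53 score, 65.5% of ATF3-Ctrl peaks over the median of that library, 29.3% in promoters, 29.1% with a p53 element, 22.2% with a core, 44.2% at least 2-fold higher after CPT, and 12 listed genes. Where no more is said, the cause of a move was not tested.

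Asking for 50% of the shorter peak in common gave 9.52% of p53 sites. Centres at most 100 bp apart gave 7.75%, with 28.0% holding a core, and at most 500 bp apart 14.4%, with 17.8% and 19 genes. When p53-KO peaks were kept, 597 sites were pre-bound (6.57%), with 23.3% in promoters, 20.6% with an element, 16.2% with a core and 33.5% higher after CPT. With ATF3-Ctrl peaks that had no ATF3-KO peak, the share was 8.48%, with 59.7% over the ATF3 median, 37.5% with an element, 28.2% with a core and 53.7% higher. With p53 sites that had no ATF3-KO peak, chosen after seeing the data, these were 8.62%, 60.1%, 38.2%, 28.4% and 53.4%.

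An ATF3-Ctrl score of at least 20 left fewer peaks by construction, with 167 sites (4.70%), 57.5% over the ATF3 median of the peaks kept, 20.4% in promoters, 22.8% with an element, 26.9% with a core, 38.4% higher and 4 genes. A p53 score of at least 10 gave 192 sites, 54.2% over the p53 median, 70.8% over the ATF3 median, 19.3% in promoters and 42.7% with an element. A p53 score of at least 20, added later, gave 78 sites (12.3%), 64.1% over the p53 median, 21.8% in promoters, 67.9% with an element, 29.5% with a core and 56.0% higher. p53 peaks over the p53-KO threshold, also added later, gave 193 sites, 56.5% over the p53 median, 19.2% in promoters and 43.0% with an element. Thus the p53 strength, promoter and element shares rested in part on p53 peaks near the threshold.

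The following settings moved 1 value each, which were 42.9% over the p53 median by normalized tag count, 41.1% in promoters with genes of every type, 15.1% and 50% with an element of at most 2 and 4 mismatches, 28.6% with a core over the whole p53 peak, 36% higher after CPT by score over library tags, and 58.1% at a fold of 1.5. The remaining settings (all sequences, p53-KO centres within 500 bp also removed, and promoters of 1 kb and 5 kb) moved none. The share over the p53 median lay near 50%, so that it passed to either side (42.9 to 64.1%). The promoter share, above the 27.4% of all ATF3-Ctrl peaks as reported, was below that value under 7 settings with the same promoter width (19.2 to 27.2%). Of 37 named pre-bound sites, the fewest, 14, remained with an ATF3-Ctrl score of at least 20, and 30 without those with an ATF3-KO peak.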
